A study of Mus musculus with 37 samples.

Results

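The milk protein genes described here were Csn1s1, Csn1s2a, Csn2, Csn3, Wap, Lalba, Btn1a1, Xdh and Mfge8. They were taken as every probe set of the array that the platform's table assigns to one of these 9 symbols, which gave 16 of 22690 probe sets and 9 of 12393 genes. Csn1s2a had 4 probe sets, Btn1a1 had 3, Csn2 and Csn3 had 2 each, and the other genes had 1 each. The mice were C57BL/6 females, 9 weeks old when assigned to a group, whose intake, weight and activity were tracked over 6 weeks. The 10 AL mice ate freely and had no wheel, the 9 AL+EX mice ate freely and could run in a wheel, the 9 CR mice were held at 70% of the calories of AL mice with all other nutrients kept in full, and the 9 CR+EX mice had both the 30% calorie restriction and a wheel. For RNA, the left and right thoracic mammary glands of a mouse were pooled, and each mouse had 1 Affymetrix oligonucleotide array, 37 in all. The labels name no pregnancy, lactation or genetic change in any group. The whole gland was used, so fewer cells of a type and less RNA per cell cannot be told apart in any value below.

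Values are the deposited signal intensities, in arbitrary units on a linear scale, and differences are on the scale of log2(signal + 16), which understates the change of dim probe sets. Group medians are given with the lowest and the highest animal, and ± marks the standard error from limma, a linear model fitted here to all 22626 probe sets that are not controls. A probe set was called when its adjusted p (Benjamini-Hochberg over all of these) was under 0.05. Signals of different probe sets have no common scale, so the genes are not ranked against each other. The number of arrays limits the precision.

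Milk is secreted by the luminal cells of the alveoli, which multiply in pregnancy and are few in a virgin gland. The caseins form micelles that carry calcium and phosphate, Wap and Lalba are whey proteins of the soluble phase, and Btn1a1, Xdh and Mfge8 coat the milk fat globule. Prolactin switches on many of these genes through the transcription factor STAT5, which binds paired TTC and GAA half-sites.

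The upstream sequences of Csn1s1 and Csn2 are shown because they carry such a paired site. In the RefSeq promoter table for GRCm38.p6, the letters TTCNNNGAA, which read the same on both strands, were searched in the 250 bases before each start. They stood in 2 of the 6 milk protein genes that the table holds, once each. The share over all 32851 promoters of that length was 7.02%. The Csn1s1 window is chr5:87665958-87666207 on the plus strand and the Csn2 window is chr5:87699426-87699675 on the minus strand. Capitals mark the match, at 100 to 92 bases before the start of Csn1s1 and 93 to 85 bases before that of Csn2.
Csn1s1: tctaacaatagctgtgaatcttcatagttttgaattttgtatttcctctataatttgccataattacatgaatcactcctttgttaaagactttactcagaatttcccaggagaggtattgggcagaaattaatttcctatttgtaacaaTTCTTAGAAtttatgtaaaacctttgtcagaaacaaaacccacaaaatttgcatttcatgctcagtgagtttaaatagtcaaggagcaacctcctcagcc
Csn2: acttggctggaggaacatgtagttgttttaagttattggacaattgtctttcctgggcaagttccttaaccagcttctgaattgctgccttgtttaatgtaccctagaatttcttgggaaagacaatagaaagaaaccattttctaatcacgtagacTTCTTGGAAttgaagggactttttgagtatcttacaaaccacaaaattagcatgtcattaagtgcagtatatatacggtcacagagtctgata
The windows of Csn1s2a, Mfge8, Wap and Lalba had no match to these letters. Csn1s1, Csn2, Csn1s2a, Csn1s2b, Prr27, Odam, BC037156 and Csn3 follow each other in this order on chromosome 5. The other members lie on chromosomes 7 (Mfge8), 11 (Wap), 13 (Btn1a1), 15 (Lalba) and 17 (Xdh). No site for a factor was measured in these samples.

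No milk protein probe set passed the test in any comparison. There were 9 comparisons: restriction averaged over both wheel states, the wheel averaged over both diets, their interaction, and the 6 pairs of groups. With limma, 0 of the tests of 16 probe sets in 9 comparisons had an adjusted p under 0.05, and 6 had an unadjusted p under 0.05. Of 128 permutation tests of the same probe sets, 6 had an unadjusted p under 0.05. For averaged restriction, the share called among all 22626 probe sets was 4.68%, against 0 of 16 milk protein probe sets. Of the called probe sets 45.2% were higher, which became 72.3% after median centring of each array and 57.2% after quantile normalization. The share called was 0% for the averaged wheel, for the interaction, for AL+EX against AL and for CR+EX against CR. It was 0.053% for CR against AL, 0.628% for CR+EX against AL+EX, 0.177% for CR+EX against AL and 0.844% for CR against AL+EX. The closest member was the brightest Btn1a1 probe set, higher by 0.49 ± 0.155 under averaged restriction, with an adjusted p of 0.0596 from limma.

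**Figure D1:**
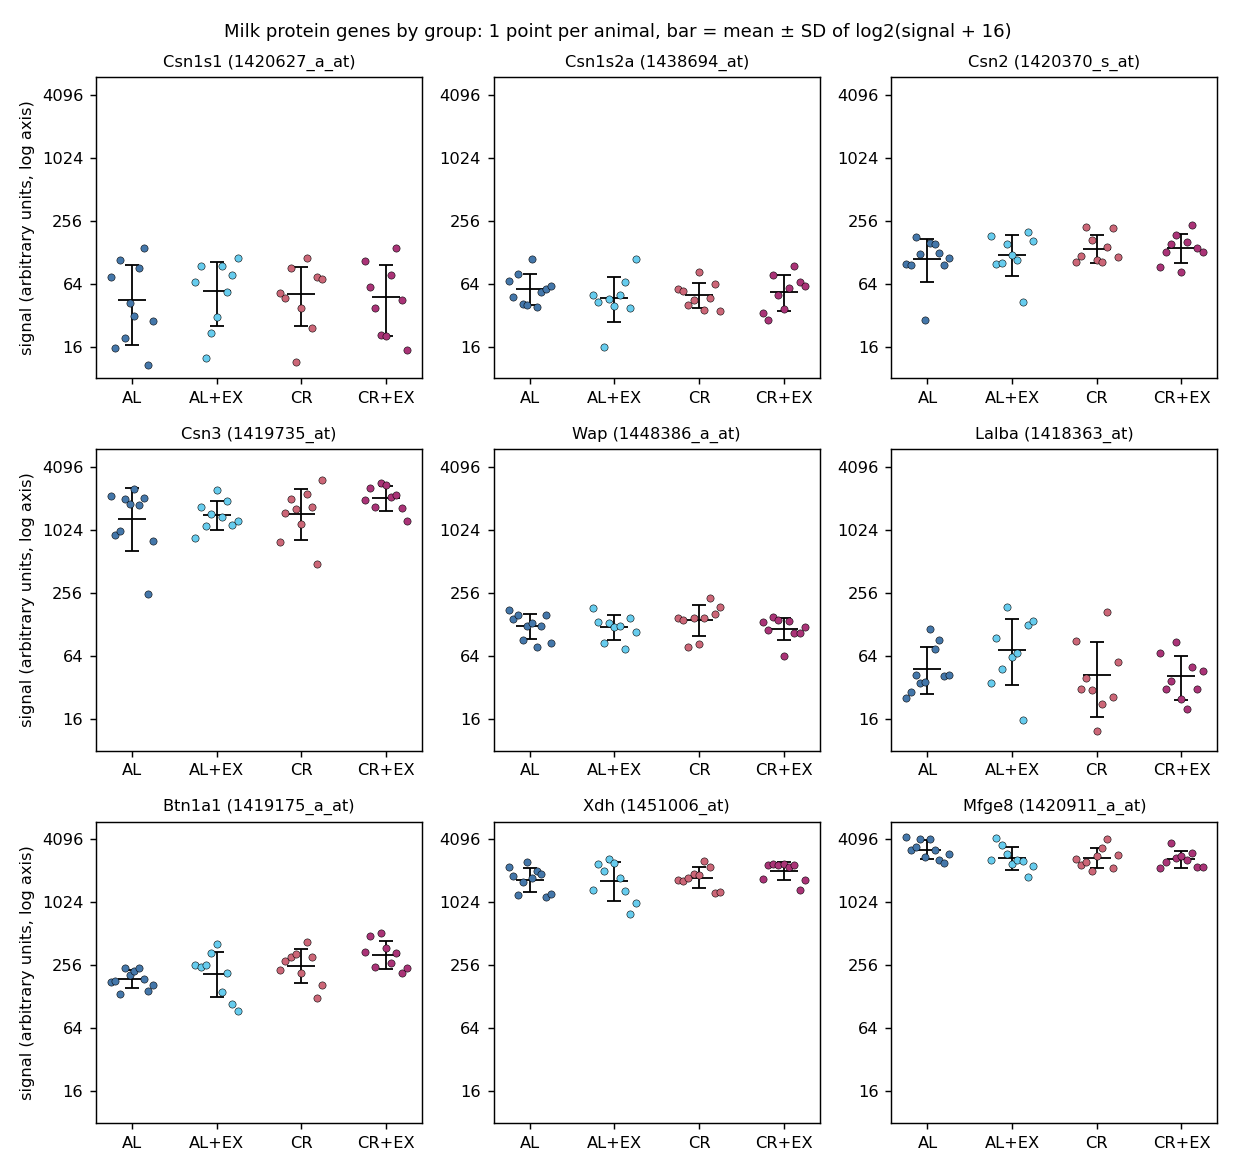
Signal of the brightest probe set of each milk protein gene in the 4 groups, 1 point per animal, on a log axis in arbitrary units; the bar is the mean ± SD of log2(signal + 16), with 10 animals in AL and 9 in each other group. The groups overlap in every panel; in the Btn1a1 panel the CR+EX animals start at 214.2 and the AL animals end at 243.

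Among the caseins, Csn1s1, which encodes alpha-S1-casein, had a low and scattered signal. Its signal ran from 10.7 to 141.2 in AL (median 36.7), from 12.4 to 112.6 in AL+EX (median 66.7), from 11.4 to 112.2 in CR (median 52.1) and from 14.9 to 141.6 in CR+EX (median 44.4). The 4 ranges covered each other almost whole, and animals of every group lay near both ends. Averaged restriction left a difference of -0.00 ± 0.253 and the averaged wheel one of 0.07 ± 0.253, neither called. Its residual SD of 0.80, the spread between animals of a group on the log2 scale, was higher than that of 94.2% of all probe sets, and than that of 86.6% of the 500 nearest in mean signal.

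Csn1s2a, an alpha-S2-type casein, had 4 dim probe sets, all among the 25% of probe sets with the lowest mean (below a signal of 63.2). The brightest, 1438694_at, had medians of 55.0 in AL, 45.7 in AL+EX, 47 in CR and 58.9 in CR+EX, within a range of 16 to 111.3 over all animals. The other 3 had medians over all animals of 9.8, 8.2 and 22.1 and reached 75.6 at most. None of the 4 was called, and their differences under averaged restriction lay between -0.10 and -0.01. The probe sets did not follow one another as a block over the 37 arrays: 1438694_at and 1455579_at had a Pearson r of 0.55, and 1420633_a_at and 1436170_a_at one of 0.50, while the r of 1436170_a_at with 1438694_at was 0.06.

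Csn2 encodes beta-casein. Its brighter probe set, 1420370_s_at, ran from 29 to 179.6 in AL (median 117.9), from 43.1 to 198.1 in AL+EX (median 120.7), from 102.2 to 221.1 in CR (median 119.1) and from 82.5 to 233.6 in CR+EX (median 141.9). No animal of a restricted group was below 82.5, and the lowest AL and AL+EX animals stood apart from the rest of their groups. The difference under averaged restriction was 0.24 ± 0.165 (95% interval -0.09 to 0.57; adjusted p = 0.473, limma). It was 0.16 without AL replicate 5 or without AL+EX replicate 7, and 0.49 ± 0.228 in the 22 arrays with the lowest mean of B lymphocyte markers (adjusted p = 0.313). The other Csn2 probe set, 1420369_a_at, pointed the other way at -0.08 ± 0.174, and the r between both over the 37 arrays was 0.31. Its largest difference was CR+EX against CR, at 0.56 (adjusted p = 1.00, limma), where the signal of CR+EX ran from 37.9 to 246.4 and that of CR from 12.4 to 97.2. The exact permutation p of that difference was 0.090.

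Csn3 encodes kappa-casein, the casein at the micelle surface. Its probe set 1419735_at was the only casein probe set with a mean in the upper 25% of probe sets. The signal ran from 248 to 2507.1 in AL (median 1782), from 860.7 to 2457.1 in AL+EX (median 1366.5), from 483.9 to 3047.3 in CR (median 1635.4) and from 1234.1 to 2847.7 in CR+EX (median 2093.3). CR+EX lacked the low animals of the other groups: its lowest animal was above 4 of 10 AL, 3 of 9 AL+EX and 3 of 9 CR animals. The difference of CR+EX from AL was 0.65 ± 0.308 (adjusted p = 0.476, limma; exact permutation p = 0.068) and from AL+EX 0.53 ± 0.316 (adjusted p = 0.522, limma; exact permutation p = 0.019, unadjusted). Averaged restriction gave 0.34 ± 0.221 (95% interval -0.11 to 0.79; adjusted p = 0.440). Without the lowest AL animal, replicate 9, the first of these was 0.39 ± 0.259 and the last 0.21 ± 0.183. The dimmer probe set 1451851_a_at had an averaged difference of 0.21 ± 0.207, but -0.13 for CR+EX against AL, and its r with 1419735_at was 0.36. That averaged difference was 0.092 without AL+EX replicate 9 and 0.32 without CR+EX replicate 9.

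Spread between animals was wide for Csn3 at its level of signal. The residual SD of 1419735_at was 0.71, against a median of 0.417 over all probe sets, and it was higher than in 98.2% of the 500 probe sets nearest in mean. The lowest Csn3 signal, 248 in AL replicate 9, stood apart from the next, 483.9 in CR, and this SD includes it.

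Of the whey proteins, Wap (whey acidic protein) varied little. Its signal ran from 78.7 to 174.3 in AL (median 128.5), from 74.9 to 183.4 in AL+EX (median 123.2), from 77.5 to 230.3 in CR (median 148.3) and from 64.7 to 149.8 in CR+EX (median 119.8). The CR group held the highest animals, and the ranges overlapped. The difference under averaged restriction was 0.07 ± 0.127 (95% interval -0.19 to 0.32) and under the averaged wheel -0.14 ± 0.127 (95% interval -0.40 to 0.12), neither called.

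Lalba encodes alpha-lactalbumin, which turns B4galt1 into lactose synthase. Its signal was dim, from 25.6 to 114.9 in AL (median 41.8), from 15.8 to 188.2 in AL+EX (median 67.8), from 12.3 to 169.4 in CR (median 30.7) and from 20 to 87.8 in CR+EX (median 37.3). AL+EX had the highest median and CR+EX the narrowest range. Under averaged restriction the difference was -0.39 ± 0.221 (95% interval -0.84 to 0.05; adjusted p = 0.347, limma), and CR+EX against AL+EX was -0.64 ± 0.317 (adjusted p = 0.413). Neither passed the test.

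Among the proteins of the milk fat globule, Btn1a1 (butyrophilin) is a membrane protein of the apical surface that binds the enzyme encoded by Xdh. Its brightest probe set, 1419175_a_at, ran from 137.3 to 243 in AL (median 183.1), from 94 to 411.7 in AL+EX (median 248.3), from 125.2 to 430.4 in CR (median 282.2) and from 214.2 to 514.1 in CR+EX (median 335.1). Of the 9 CR+EX animals 7 were above the highest AL animal, and all 9 were above the AL median. AL+EX and CR spread over both, with 5 of 9 animals of each above the highest AL animal. The medians were ordered as AL, then AL+EX, CR and CR+EX.

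The difference in Btn1a1 under averaged restriction was 0.49 ± 0.155, or 1.40-fold (95% interval 0.17 to 0.80 on the log2 scale; adjusted p = 0.0596, limma), and its permutation p was 0.0040, unadjusted. CR+EX exceeded AL by 0.73 ± 0.216, or 1.66-fold (adjusted p = 0.148, limma), with an exact permutation p of 0.00021, unadjusted. CR+EX against AL+EX was 0.58 ± 0.222 (adjusted p = 0.239, limma; exact permutation p = 0.043) and CR against AL 0.39 (exact permutation p = 0.046). The averaged wheel gave 0.24 ± 0.155 (95% interval -0.07 to 0.56) and the interaction 0.19 ± 0.310 (95% interval -0.44 to 0.82). Neighbours in the order of medians, such as AL+EX against AL at 0.15 (exact permutation p = 0.523) or CR+EX against CR at 0.34 (exact permutation p = 0.144), did not differ beyond their spread. The 5 arrays with a Gapdh ratio (3' over 5') above 2 were AL replicates 1, 2 and 8 and CR+EX replicates 1 and 2. Over the 12 alternative settings, which include a fit without these arrays, the difference of CR+EX from AL lay between 0.62 and 0.79. The part of this ratio in the difference was not tested.

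Whether the Btn1a1 difference counted as called depended on the set of probe sets tested and on the animal numbers. When the 25% of probe sets with the lowest mean were left out, the same 0.49 had an adjusted p of 0.0447 from limma. With 1 probe set per gene and the dimmest 25% left out it was 0.0388. The share called also grew over all features, to 1240 of 16969 probe sets and 813 of 9295 genes, from 1060 of 22626 probe sets. The animal numbers in the titles fall into 4 runs of 24 numbers, with 8, 11, 10 and 8 arrays, each holding all 4 groups. No label calls a run a batch, and within a run the numbers rise from AL through AL+EX and CR to CR+EX, so place in the run and group cannot be told apart. With the run as a block, averaged restriction gave 0.50 ± 0.116 (adjusted p = 0.0039, limma), CR+EX against AL 0.74 (adjusted p = 0.013) and CR+EX against AL+EX 0.58 (adjusted p = 0.040). With this block 2707 of all 22626 probe sets were called for averaged restriction, and the shares for these pairs of groups are not given here. Within the runs the averaged difference of Btn1a1 was 0.57, 0.41, 0.59 and 0.48. Without AL+EX replicate 4 or 5 the adjusted p was 0.041 and 0.024. Without CR replicate 8 or 9 it was 0.030 and 0.047, and without CR+EX replicate 8 it was 0.042 (limma, no block). Leaving out any other single array left the difference uncalled, with an adjusted p of up to 0.102. Of the 12 alternative settings, 9 left averaged restriction uncalled, with an adjusted p of up to 0.182 (limma). For CR+EX against AL 11 did so, with up to 0.513, and for CR+EX against AL+EX 11, with up to 0.649.

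The 3 Btn1a1 probe sets did not behave alike. The signal of 1425754_a_at lay between 0.6 and 55.1 over all animals (median 3.9) and that of 1451824_at between 2.6 and 69.6 (median 17.9), both in the lowest 25% of means. Under averaged restriction they gave -0.14 ± 0.179 (95% interval -0.50 to 0.22) and -0.18 ± 0.201 (95% interval -0.59 to 0.22). Their r with 1419175_a_at over the 37 arrays was -0.05 and 0.08, and -0.01 with each other.

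**Figure D2:**
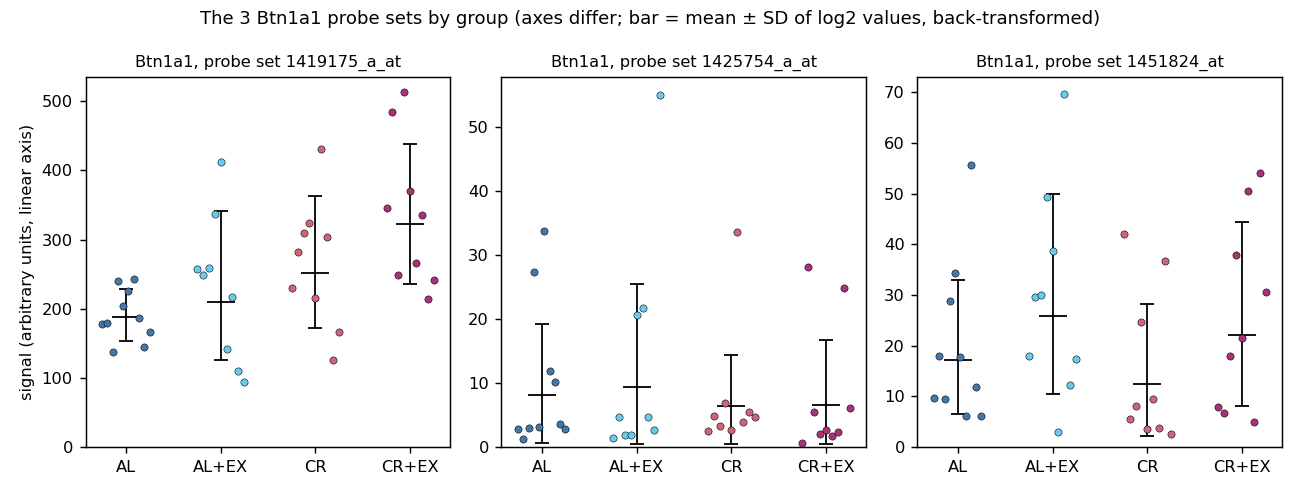
Signal of the 3 Btn1a1 probe sets by group, 1 point per animal, on linear axes that start at 0 and differ between panels; the bar is the mean ± SD of log2(signal + 16), turned back to signal. Group medians climb from 183.1 to 335.1 in 1419175_a_at, while all animals lie at or below 69.6 in the other 2 panels.

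Xdh encodes xanthine oxidoreductase, an enzyme of purine breakdown that many tissues use and that the milk fat globule needs for its release. Its signal ran from 1136.9 to 2468.6 in AL (median 1783), from 787 to 2627.2 in AL+EX (median 1754.8), from 1250.6 to 2528.2 in CR (median 1753.3) and from 1347.7 to 2381.1 in CR+EX (median 2303.7). The first 3 medians were nearly equal, and the widest range was that of AL+EX. Averaged restriction gave 0.19 ± 0.132 (95% interval -0.07 to 0.46; adjusted p = 0.469, limma) and the averaged wheel 0.08 ± 0.132, neither called.

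Mfge8 encodes lactadherin, a fat globule protein that also bridges dying cells to phagocytes. Its signal ran from 2419.2 to 4316 in AL (median 3208), from 1784.9 to 4165.4 in AL+EX (median 2567.5), from 2024 to 4122 in CR (median 2639.2) and from 2177.5 to 3788.2 in CR+EX (median 2553.2). AL had the highest median, and 8 of 9 CR+EX animals were at or below it. The difference of CR+EX from AL was -0.31 ± 0.140 (adjusted p = 0.449, limma; exact permutation p = 0.028, unadjusted), and averaged restriction gave -0.15 ± 0.100 (95% interval -0.35 to 0.05). The latter was -0.22 ± 0.095 with array weights (adjusted p = 0.182, limma). Mfge8 thus had a negative difference where Btn1a1 and Xdh had positive ones, and no test set the genes against each other.

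**Figure D3:**
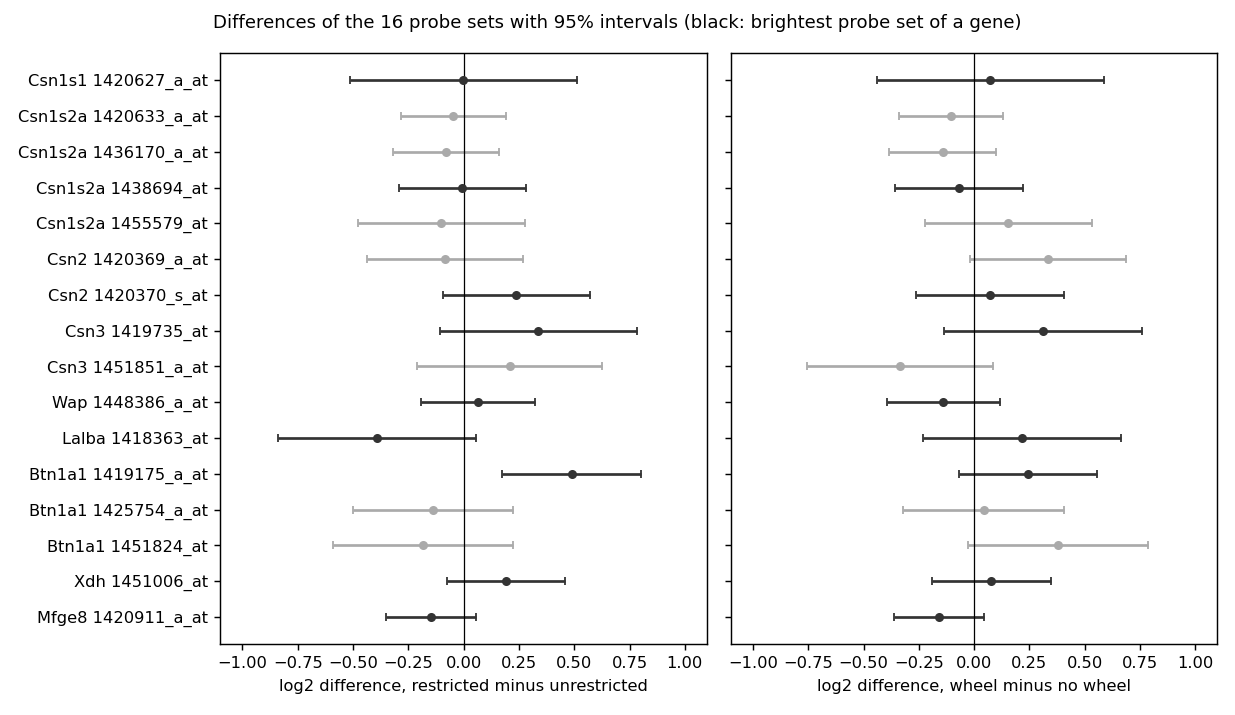
Differences of all 16 probe sets in log2(signal + 16), left for averaged restriction and right for the averaged wheel; points are limma estimates over 37 arrays, lines their 95% intervals, and black marks the brightest probe set of a gene. Only the interval of Btn1a1 1419175_a_at on the left, 0.17 to 0.80, leaves out 0.

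Across single arrays the members did not move as 1 group. Over the 36 pairs of brightest probe sets the median Pearson r was 0.06, with a range of -0.39 to 0.75. Only 3 pairs exceeded 0.5: Btn1a1 with Xdh (r = 0.75, Spearman's rho = 0.69), Csn3 with Btn1a1 (r = 0.56, rho = 0.53) and Csn3 with Xdh (r = 0.54, rho = 0.53). Without the 2 arrays farthest from the median these were 0.66, 0.51 and 0.46. Centred on the runs they were 0.58, 0.43 and 0.33. Outside the brightest probe sets, Csn1s1 and the dimmer Csn2 probe set 1420369_a_at had r = 0.53 (rho = 0.55), which was 0.52 when centred on the runs. These are descriptions over arrays that share groups and runs.

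**Figure D4:**
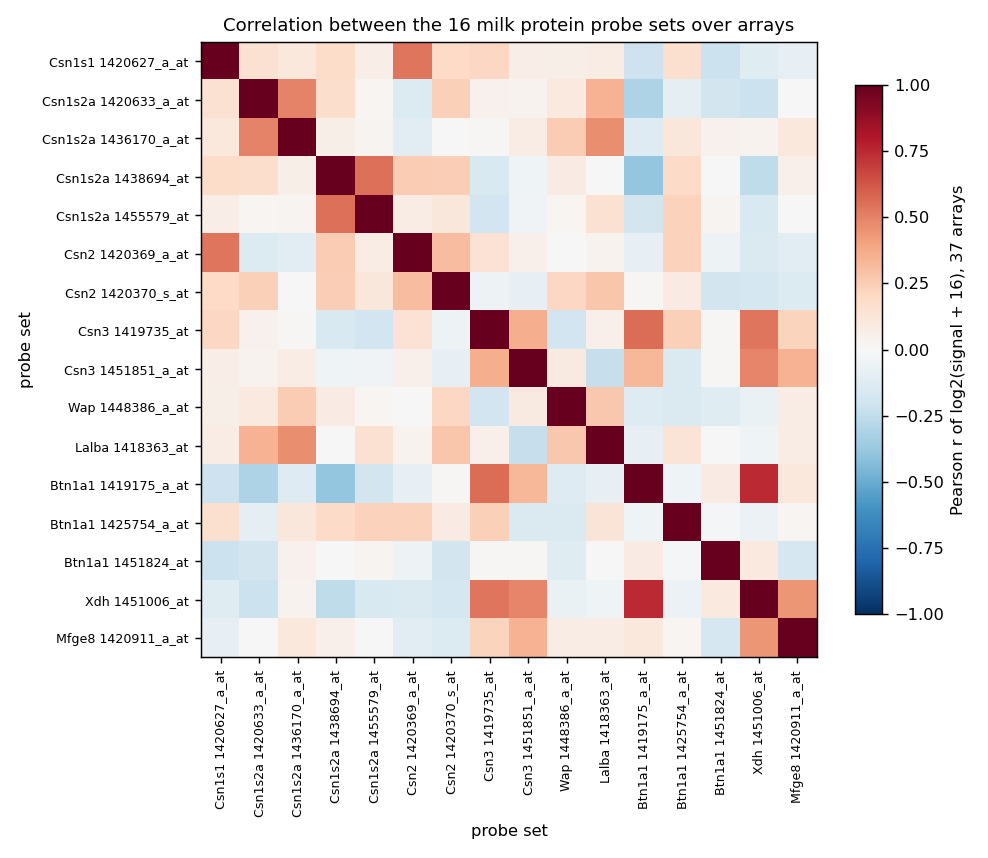
Pearson r of log2(signal + 16) between the 16 milk protein probe sets over the 37 arrays, on a colour scale from -1 to 1. The darkest square off the diagonal is Btn1a1 1419175_a_at with Xdh at 0.75, and most other squares are pale, with a median of 0.04 over the 120 pairs.

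Btn1a1, Xdh and Csn3 had lower medians on the arrays where B lymphocyte genes were high. The mean log2 signal of 10 B lymphocyte markers split the arrays into 15 at or above 7.99 and 22 at or below 7.24, with 4 high arrays in AL, 4 in AL+EX, 4 in CR and 3 in CR+EX. All 8 arrays of the last run were high, with 3, 1 and 3 in the other runs. The range of this marker mean was 6.89 to 10.16 in AL, 6.85 to 9.96 in AL+EX, 6.74 to 9.47 in CR and 6.62 to 9.19 in CR+EX. Its group average was 8.18 in AL, 8.06 in AL+EX, 7.75 in CR and 7.42 in CR+EX, so it was lower in the restricted groups. Xdh had a median of 1338.7 in the high and 2208.4 in the other arrays, Btn1a1 166.9 and 262.9, and Csn3 1234.1 and 1960.2. The highest Csn3 animal, at 3047.3, was nevertheless among the high arrays. Their r with that mean was -0.82, -0.73 and -0.63, against -0.34 for Mfge8. The brightest probe sets of Csn1s1, Lalba and Wap went the other way, with medians of 71.3, 56.1 and 147.3 in the high arrays and 40.1, 35.6 and 126.9 in the others. So did those of Csn1s2a (56.5 and 45.4) and Csn2 (128.3 and 122.2), while Mfge8 had 2556.1 and 2875.4.

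The last run was also the lowest for these genes. Its median was 1242.6 for Xdh, 155.4 for Btn1a1, 1189 for Csn3 and 2229.6 for Mfge8. The lowest median of the other 3 runs was 1755.9, 234, 1592 and 2603.4 in the same order. Without the 15 arrays, averaged restriction gave 0.40 ± 0.141 for Btn1a1 (adjusted p = 0.143, limma), 0.19 for Csn3 and 0.06 for Xdh. For Mfge8 it gave -0.29 ± 0.114 (adjusted p = 0.210, limma), further from 0 than with all arrays. CR+EX against AL+EX then gave 0.30 ± 0.200 for Btn1a1, and CR+EX against AL 0.72 ± 0.191. The r between Btn1a1 and Xdh was 0.45 in the other 22 arrays, and that of Csn3 with Xdh 0.26. Of Csn3 with Btn1a1 it was 0.57.

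**Figure D5:**
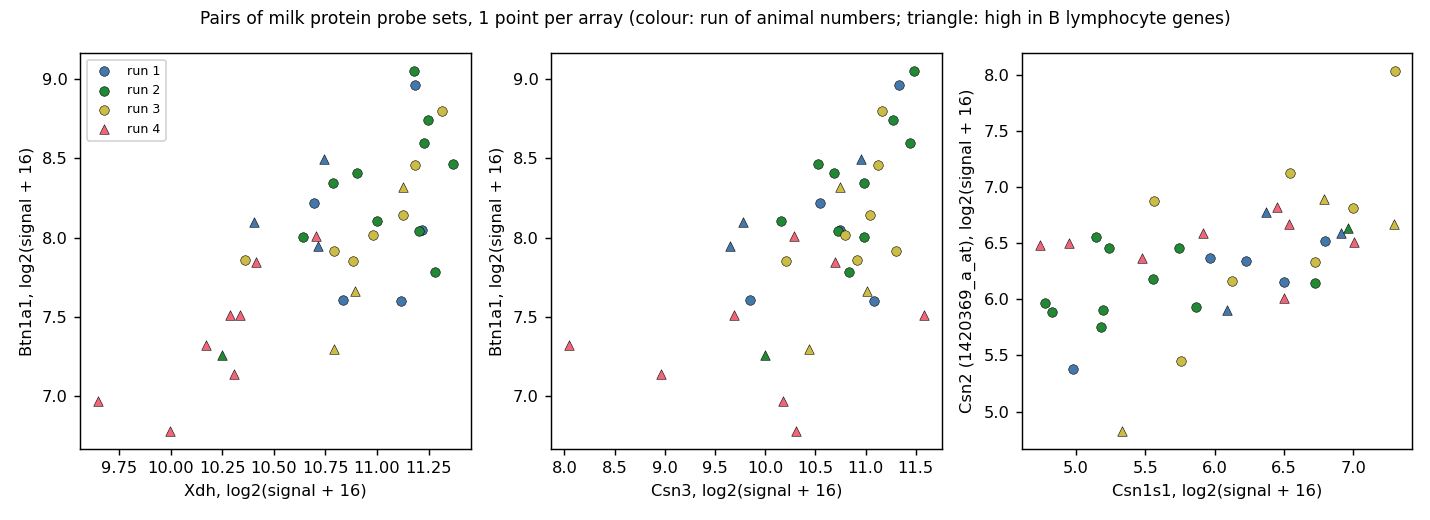
Log2(signal + 16) of Xdh against Btn1a1 (r = 0.75), of Csn3 against Btn1a1 (r = 0.56) and of Csn1s1 against Csn2 1420369_a_at (r = 0.53), 1 point per array; colours are the 4 runs of animal numbers and triangles the 15 arrays high in B lymphocyte genes. In the left panel the lowest points are triangles, most of them of the last run.

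Markers of the epithelium were followed beside the milk genes. The mean of 22 luminal markers ran from 7.77 to 10.25 in AL (median 9.65), from 7.72 to 10.16 in AL+EX (median 9.30), from 7.78 to 9.66 in CR (median 9.08) and from 8.60 to 9.55 in CR+EX (median 8.90). Of these, 0 were higher and 2 lower under averaged restriction: Cd24a, a surface protein (-0.71 ± 0.149; adjusted p = 0.0039, limma), and Spint1, a protease inhibitor of epithelia (-0.64 ± 0.171; adjusted p = 0.022). Which cells of the gland carried these changes was not tested. The median of the 22 luminal markers was -0.37 with 2 of 22 positive, against a median of -0.03 over all 12393 genes, of which 2.4% were called higher and 2.75% lower. The luminal keratins Krt8 and Krt18 had differences of -0.65 ± 0.236 (adjusted p = 0.110) and -0.38 ± 0.218 (adjusted p = 0.359), and Epcam one of -0.27 ± 0.319. Mfge8 had an r of 0.58 with the luminal mean, Csn3 0.51, Xdh 0.45 and Btn1a1 0.30. In the 22 arrays low in B lymphocyte genes these were 0.46, -0.02, -0.25 and -0.37, and with each run of animals centred on its own mean 0.49, 0.41, 0.02 and -0.15. The r of Btn1a1 was thus negative in both, and that of Csn3 and Xdh was below 0 in the 22 arrays. The brightest probe sets of the other members had a lower r with the luminal mean over all 37 arrays. It was 0.02 for Csn1s1, 0.02 for Lalba, -0.20 for Wap, -0.25 for Csn1s2a and -0.42 for Csn2. For Csn2 it was -0.44 in the 22 arrays and -0.41 with each run centred. The part of these markers in the milk gene values was not tested.

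The markers of other cell types were read against the same shares of all genes, 2.4% higher and 2.75% lower. Of 11 basal markers 0 were called in either direction, with 9 of 11 positive and a median of 0.20, against -0.03 over all genes. The r of their mean (10 markers) was 0.59 with Csn3, 0.57 with Xdh and 0.53 with Btn1a1. In the 22 arrays low in B lymphocyte genes it was 0.16, 0.43 and 0.28. Over all 37 arrays it was 0.14 with Lalba, 0.01 with Wap and -0.08 with Csn1s1. With the brightest probe sets of Csn2 and Csn1s2a it was -0.11 and -0.36. Of 10 adipocyte markers 1 was higher (Retn, resistin, 0.64) and 1 lower (Lep, leptin, -1.39), while Adipoq had 0.14 ± 0.110 (adjusted p = 0.551, limma). The median of these 10 was 0.19, with 7 positive. Of 10 B lymphocyte genes 0 were called higher and 1 lower (Ly6d, -1.37), with 0 of 10 positive and a median of -0.42. Ly6d is also 1 of the 10 genes in the B lymphocyte marker mean. Which cells of the gland carried its change was not tested. Of 10 macrophage genes 1 was called higher (Cd163, 0.63), with 9 of 10 positive and a median of 0.15. In endothelium, skeletal muscle, salivary gland, and skin and hair, 0 of 8, 11, 10 and 8 genes were called. Their medians were 0.11, -0.10, -0.003 and -0.11 in that order. The mean of the 11 muscle markers, between 13.2 and 15.2 over all arrays, had an r of -0.68 with Xdh and -0.52 with Btn1a1. In the 22 arrays low in B lymphocyte genes these were -0.51 and -0.10. In those arrays the r of Xdh was 0.61 with the endothelium mean and 0.56 with the macrophage mean. Over all 37 arrays the latter 2 were 0.36 and -0.16.

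Genes of other secretory products were counted from a list of 25, of which 22 were measured. Under averaged restriction 0 were higher and 1 lower, with a median of 0.03. The one that fell was B4galt1, the partner of Lalba in lactose synthesis (-0.30 ± 0.091; adjusted p = 0.0497, limma). Glycam1, Wfdc18, Ltf, Lcn2 and the other 17 genes did not pass the test. The mean of the 17 list genes outside the dimmest 25% had an r of -0.51 with Xdh and -0.42 with Btn1a1. In the 22 arrays low in B lymphocyte genes these were -0.12 and -0.10. Over all 37 arrays its r was 0.36 with Lalba, 0.22 with Csn1s1, 0.11 with Wap and -0.03 with Csn3. With the brightest probe sets of Csn1s2a and Csn2 it was 0.06 and -0.10. Of 21 measured regulators of lactation, 2 rose and 1 fell. Those that rose were Cebpb, a transcription factor of alveolar development (0.37 ± 0.112; adjusted p = 0.048, limma), and Nr3c1, the glucocorticoid receptor (0.26 ± 0.076; adjusted p = 0.043). B4galt1, Cebpb and Nr3c1 lay close to the threshold of 0.05. Only milk protein probe sets were followed through the alternative settings and the fits without 1 array. The called genes of the other lists, Stat5b below among them, were not.

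The regulator that fell was Stat5b, one of both STAT5 genes. Its signal ran from 653.3 to 1170.4 in AL (median 795.1), from 701.2 to 1082.5 in AL+EX (median 874.7), from 545.4 to 697.4 in CR (median 625.2) and from 518.3 to 886.5 in CR+EX (median 645.6). CR lay almost wholly below the groups that ate freely. The difference under averaged restriction was -0.38 ± 0.070 (adjusted p = 0.0011, limma). Stat5a, the more abundant STAT5 of the lactating gland, had -0.18 ± 0.125 (adjusted p = 0.488), and Elf5, a factor of alveolar cells, -0.33 ± 0.279 (adjusted p = 0.587). Prlr was not analysed here. In all these lists 0 genes were called for the averaged wheel or the interaction, as among all genes (0%).

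The genes whose pattern over the 37 arrays was most like that of the members were looked up among 9289 genes outside the dimmest 25%. The mean standardised profile of the caseins, Wap and Lalba was most like Mag (r = 0.66), Tada1 (0.65), Srcap (0.64), Fignl1 (0.63) and Asz1 (0.60). The brightest probe sets in this mean had an r of only -0.19 to 0.28 with each other. Those of Csn1s1, Csn1s2a and Lalba are among the dimmest 25%. Btn1a1 was most like Sra1 (r = 0.79), Sccpdh (0.76) and Ppp1r1a (0.75). Xdh was most like Igfbp4 (r = 0.86), Marveld1 (0.84) and Mc2r (0.82), and Mfge8 most like Card10 (r = 0.75), Grn (0.74) and Celsr2 (0.73). Of the genes searched, 7.61% had an r above 0.5 with Xdh, 4.93% with Btn1a1, 3.38% with Mfge8 and 0.603% with the mean profile. In the 22 arrays low in B lymphocyte genes the r with Xdh was 0.58 for Igfbp4, 0.63 for Marveld1 and 0.19 for Mc2r. The r with Btn1a1 was then 0.55, 0.54 and 0.62 for its 3 genes. Those of the other genes named were between 0.55 and 0.79.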

How the data were processed

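The authors deposited Affymetrix signal intensity values, linear, for 37 arrays. Per the submitters' processing notes they came from GCOS version 1; how the signal was computed, and any detection calls, were not stated there. The arrays were scaled before deposit, since the mean after trimming 2% at each end lay between 500.16 and 500.23, so no scaling was added. Gene symbols came from the platform's table: 20380 probe sets name 1 gene and 691 several, none of these a member.

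The 64 control probe sets were left out. Log2(signal + 16) of 22626 probe sets was fitted in R 4.3.3 with limma 3.58.1 (1 mean per group, 33 residual degrees of freedom, variance trend, two-sided tests, Benjamini-Hochberg adjustment within each of 9 comparisons). P-values measure the spread between animals with 1 array each. Permutation tests of single probe sets were two-sided: exact for pairs of groups, 100000 draws within the other factor for averaged effects. Lists used the brightest probe set of each gene. Mean levels of a list used its genes outside the dimmest 25%. The code was tested on simulated data.

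Named genes were all members, up to 2 risen and 2 fallen genes of each list past the threshold, the most alike genes, and Elf5, Prlr, Stat5a, Stat5b, Krt8, Krt18, Epcam and Adipoq. 1 gene of the rule is not reported here. Genes listed without values are outside this rule. The members and lists were chosen with earlier results of these data known. Alternatives were 12 settings and 37 fits without 1 array each.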

Additional observations from a re-analysis of the deposited data

Results flagged for a closer look

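In 7 of the 64 groups of a probe set and a diet, the highest or lowest animal lay far from the others of its group by Dixon's 95% limit, which chance alone passes in about 1 of 20 groups. Csn3 1419735_at had an AL animal (replicate 9) at 248.0, where the next lowest was 809.6. It was in the last run and high in B lymphocyte genes. That animal also had the lowest luminal marker mean (7.77) and the lowest basal marker mean (7.49) of AL. Csn2 1420370_s_at had an AL animal (replicate 5) at 29.0, next 95.7, and an AL+EX animal (replicate 7) at 43.1, next 98.9. Wap had a CR+EX animal (replicate 5) at 64.7, next 105.7. The other 3 were high values of probe sets that are dim elsewhere. Csn1s2a 1436170_a_at had an AL animal (replicate 8) at 52.3, next 12.5, and a CR animal (replicate 7) at 32.2, next 10.9. Btn1a1 1425754_a_at had a CR animal (replicate 6) at 33.6, next 6.9.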

How the results depend on the processing

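The main count of 0 called probe sets became 1, the brightest of Btn1a1, for averaged restriction when the lowest 25% of probe sets were left out, with the brightest probe set per gene outside the lowest 25% of genes, and with the run as a block. It also became 1 with the run as a block for CR+EX against AL+EX and for CR+EX against AL. For averaged restriction the calls over all features were then 1240 of 16969 probe sets, 813 of 9295 genes and 2707 of 22626 probe sets. They were 1060 of 22626 probe sets in the main fit. Over the 12 settings the adjusted p of this Btn1a1 probe set reached 0.182 for averaged restriction (limma). It reached 0.649 for CR+EX against AL+EX and 0.513 for CR+EX against AL. The shares over all probe sets for the blocked pairs and for the fits without 1 array are not given here. Over the 37 fits without 1 array the count ranged from 0 to 1 for averaged restriction and stayed at 0 for the other 8 comparisons. It was 1 without AL+EX replicate 4 or 5, CR replicate 8 or 9, or CR+EX replicate 8, where the adjusted p was 0.041, 0.024, 0.030, 0.047 and 0.042; over all 37 it ranged from 0.024 to 0.102, and the difference from 0.42 to 0.55. Of 39 differences followed, 32 kept their sign in every one of the 12 settings that tested them, and 34 in every fit without 1 array.

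The differences that changed sign were small and uncalled. For averaged restriction, Csn1s1 became 0.019 with a pseudocount of 1, 0.055 with median centring, 0.062 with quantile normalization, 0.29 without the 15 B lymphocyte arrays and 0.039 with array weights. Csn1s2a 1420633_a_at became 0.0089 with median centring, 0.039 without the B lymphocyte arrays and 0.025 with array weights. Csn1s2a 1438694_at became 0.0041 with a pseudocount of 1, 0.050 with median centring, 0.053 with quantile normalization, 0.068 without arrays with a Gapdh ratio (3' over 5') above 2, 0.12 without the B lymphocyte arrays and 0.048 with array weights. Csn2 1420369_a_at became 0.15 without the B lymphocyte arrays. For the averaged wheel, Csn1s1 became -0.050 without the B lymphocyte arrays and -0.057 with array weights. Csn1s2a 1438694_at became 0.0059 without the Gapdh arrays. Btn1a1 1425754_a_at became -0.069 with a pseudocount of 1, -0.047 without the Gapdh arrays, -0.23 without the B lymphocyte arrays and -0.084 with array weights. The cause was not tested. Without 1 array, averaged restriction ranged from -0.083 to 0.080 for Csn1s1 and from -0.067 to 0.056 for Csn1s2a 1438694_at. The averaged wheel ranged from -0.0088 to 0.15 for Csn1s1, from -0.011 to 0.15 for Csn2 1420370_s_at and from -0.050 to 0.11 for Btn1a1 1425754_a_at. No paired analysis was possible because the titles give animal numbers and no replicate number shared between groups. Dim signals, below 63.2 on average for 8 of the 16 probe sets, limit what could be seen for Csn1s1, Csn1s2a, Lalba and 2 probe sets of Btn1a1.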
